A study of Mus musculus with 5 samples.

Results

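The genes described here encode 10 subunits of the chaperones that carry histone H3 and place it in chromatin: Hira, Ubn1, Ubn2 and Cabin1 of the HIRA complex, the paralogs Asf1a and Asf1b, Atrx and Daxx, and Chaf1a and Chaf1b of chromatin assembly factor 1 (CAF-1). They were chosen by gene symbol as subunits of these complexes, and all 10 were found among the 22026 genes listed. Transcript levels came from RNA-seq of 5 libraries of B6D2F1 mouse embryos at the 4-cell stage made by nuclear transfer, in which a donor nucleus is placed in an oocyte that has lost its own. There was 1 library for each group: 1 of untreated embryos, 1 whose treatment is given as luciferase, 1 after H3.3 knockdown, and 2 in which the knockdown was combined with an mRNA, of H3.3 in the former and, by its title, of H3.2 in the latter. The treatment tag of the last library names H3.3 mRNA instead, so each statement on it depends on the title. The source label reads NT for the knockdown, H3.3 mRNA and untreated libraries, and SCNT for those of luciferase and H3.2 mRNA. The donor cell, the number of embryos per library and the knockdown reagent are not given in the sources used here. No group has a replicate, so no difference below has a test or an error from repeated libraries, and differences are descriptions of these libraries.

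Newly made histone H3 is escorted by chaperones, and each H3 form is handed on by its own set. HIRA, with the ubinuclein subunits and CABIN1, places the variant H3.3 in chromatin at any time of the cell cycle, and in the fertilized egg it is known for loading maternal H3.3 onto the incoming paternal genome. ATRX and DAXX place H3.3 at telomeres, pericentric repeats and silenced repeats. CAF-1 travels with the replication fork through PCNA and places the replication forms H3.1 and H3.2 on new DNA. ASF1A and ASF1B receive H3-H4 pairs and pass them on to HIRA or to CAF-1, and ASF1B is the paralog known for dividing cells.

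Promoters are shown for 4 of the genes: Hira and Chaf1a, the only members whose levels in all 3 knockdown-derived libraries lay above both libraries without the knockdown, Chaf1b, the partner of Chaf1a that did not follow it, and Asf1b, the member with the highest level in the knockdown library. Each line gives the 250 bases before the annotated start, 5′ to 3′ on the gene's strand, from RefSeq on GRCm38.p6, whereas the expression values were made on mm9. Capitals mark CCAAT boxes (CCAAT) and E2F-type words (TTTGGCGC, TTTCCCGC or TTTGGCGG), each searched on both strands.
Hira, chr16:18876500-18876749, plus strand: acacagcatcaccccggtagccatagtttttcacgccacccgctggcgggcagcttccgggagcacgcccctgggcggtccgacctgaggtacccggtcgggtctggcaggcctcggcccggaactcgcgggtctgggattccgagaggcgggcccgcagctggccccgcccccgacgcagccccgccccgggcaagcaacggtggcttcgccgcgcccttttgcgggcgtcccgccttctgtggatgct
Chaf1a, chr17:56040166-56040415, plus strand: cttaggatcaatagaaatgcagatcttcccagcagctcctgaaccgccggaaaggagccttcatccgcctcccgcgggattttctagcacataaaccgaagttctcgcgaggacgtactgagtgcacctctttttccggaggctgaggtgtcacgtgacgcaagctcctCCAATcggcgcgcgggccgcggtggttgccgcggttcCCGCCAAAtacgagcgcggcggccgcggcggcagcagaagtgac
Chaf1b, chr16:93883651-93883900, plus strand: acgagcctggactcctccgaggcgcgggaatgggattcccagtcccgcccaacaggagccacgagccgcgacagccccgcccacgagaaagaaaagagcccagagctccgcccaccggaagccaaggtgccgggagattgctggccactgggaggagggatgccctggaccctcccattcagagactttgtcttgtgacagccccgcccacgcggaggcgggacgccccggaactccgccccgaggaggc
Asf1b, chr8:83955444-83955693, plus strand: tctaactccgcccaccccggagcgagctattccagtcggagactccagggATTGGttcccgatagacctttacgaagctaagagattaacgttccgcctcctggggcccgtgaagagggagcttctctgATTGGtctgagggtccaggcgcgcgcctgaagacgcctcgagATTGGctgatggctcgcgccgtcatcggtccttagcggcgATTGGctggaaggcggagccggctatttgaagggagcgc
The Asf1b window held 4 CCAAT boxes, all on the opposite strand, which 0.84% of all 32851 promoter windows match or exceed, and the Chaf1a window held 1 CCAAT box and 1 E2F-type word that starts 44 bases before the annotated start. No marked motifs overlapped. An E2F-type word was present in 1 of the 12 windows of the 10 genes, in 1.73% of all windows and in 2.97% of the windows of genes tested here, where 1.43% held 4 or more CCAAT boxes, and a CCAAT box in 7 of the 12, in 33.8% of all and in 35.5% of those of genes tested. The 12 windows were rich in CG pairs, with a median of 26.5 against 6 over all windows and 15 over the windows of genes tested here. Daxx gave more than 1 of the 12 windows and these share bases, so the 12 are not all separate. A match describes the letters only.

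The knockdown was checked on its targets, the H3.3 genes H3f3a and H3f3b, whose summed level in FPKM (fragments scaled by transcript length and by library total) was 5266 untreated and 5734 with luciferase. It was 664 FPKM in the knockdown, 467 with H3.3 mRNA and 420.1 after H3.2 mRNA. The library given H3.3 mRNA thus showed no higher level of these genes than the knockdown. Of 8 embryo markers 7 or 8 were above 0 in each library (Nanog was at 0 in the knockdown and Tdgf1 with H3.3 mRNA), and Pou5f1 ranged from 157 to 1250 FPKM. Of 8 fibroblast markers, 2 were above 0 in the luciferase library, with a sum of 6.71 FPKM, and none elsewhere; of 8 blood and endothelial markers 2 or 3 were above 0, with sums from 138 to 742 FPKM, and Ptprc, Cd34, Kdr, Cdh5 and Hbb-b1 were at 0 throughout. The cumulus and granulosa markers Fshr, Cyp11a1, Has2 and Ptx3 were at 0 in all 5 libraries, though that list summed to 332 to 1076 FPKM. Most of this sum was Amhr2 (142 to 1056 FPKM) except in the untreated library, where Tnfaip6 was at 185 FPKM and Cyp19a1 at 4.25 FPKM, and Tnfaip6 was at 30.8 FPKM or less and Inha at 19.7 FPKM or less in the others. Sequencing depth is unknown. A search of 333 genes under 20 FPKM, made on the luciferase to untreated ratio only, found no step worth 1 read, and the other libraries were not searched.

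All 10 chaperone genes were above 0 in all 5 libraries, as were 64.8% of the 13144 genes whose mean reached 1 FPKM, which are the genes tested below. Asf1b and Chaf1b had the highest means, 442 and 372 FPKM, followed by Chaf1a at 219.9, Daxx at 157, Hira at 145, Cabin1 at 96.6, Ubn1 at 68.0 and Asf1a at 47.4 FPKM. Atrx and Ubn2 were lowest, at 23.4 and 15.5 FPKM. Asf1b and both CAF-1 genes thus had the 3 highest means, and the lowest percentile of Asf1b and Chaf1b among the listed genes of a library was 89.0 and 89.2. The SD of log2(FPKM + 1) over the 5 libraries ran from 0.38 for Chaf1b to 1.87 for Atrx, against a median of 1.21 over all genes tested and of 0.88 over the 5038 genes with a mean of 50 to 500 FPKM, the range that holds 7 of the 10. The order was not fixed: Chaf1b led in the untreated and luciferase libraries, Asf1b in the knockdown and H3.2 mRNA libraries, and Chaf1a in the H3.3 mRNA library.

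**Figure D1:**
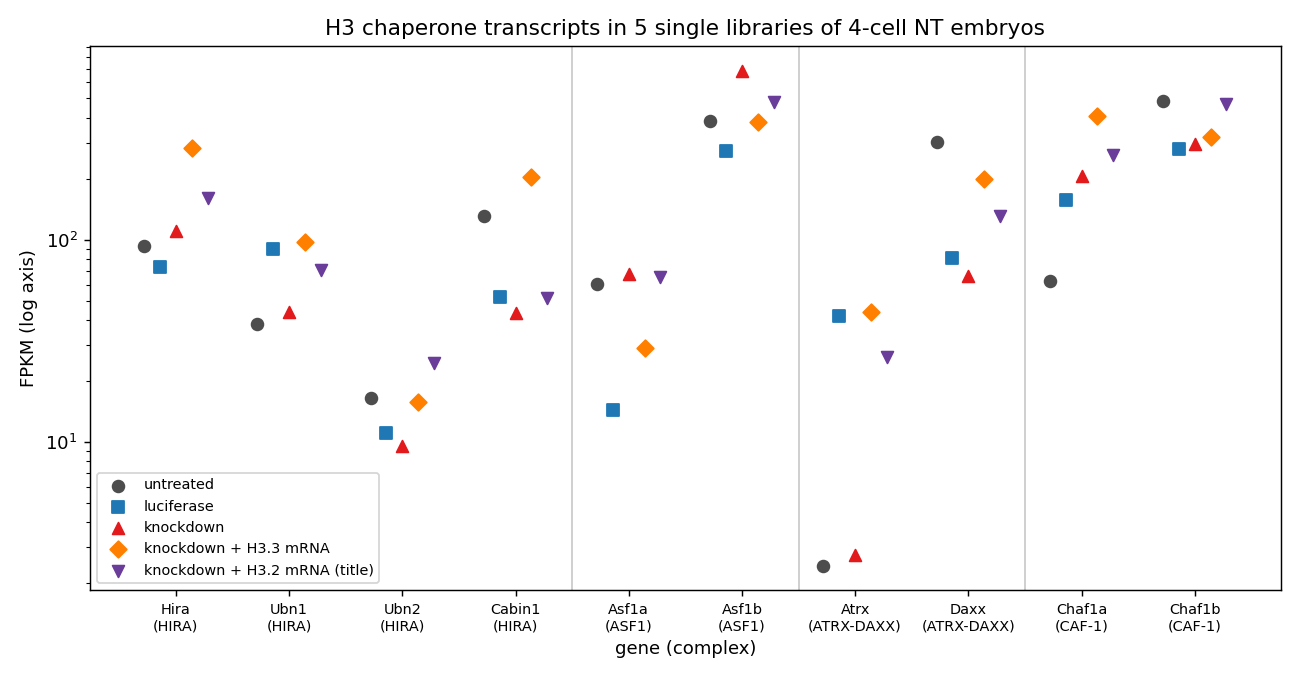
FPKM on a log axis for each of the 10 genes, grouped by complex, with 1 point per library and no error bars because each group is 1 library. Atrx shows the widest range, from 2.44 to 43.8 FPKM, and Chaf1b the narrowest, from 283 to 488 FPKM.

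Hira, the WD-repeat subunit that gives the complex its name, stood at 93.4 FPKM in the untreated library, 73.6 with luciferase, 111 in the knockdown, 285 with H3.3 mRNA and 162 after H3.2 mRNA. All 3 knockdown-derived libraries lay above both controls. Hira in the knockdown was 1.19 times the untreated and 1.51 times the luciferase level, and the H3.3 mRNA library was 2.56-fold above the knockdown and 3.87-fold above luciferase. Cabin1, a scaffold subunit of the complex that also binds calcineurin, stood at 130.7 FPKM untreated, 52.3 with luciferase, 43.6 in the knockdown, 205 with H3.3 mRNA and 51.5 after H3.2 mRNA. The H3.3 mRNA library was the highest for both genes, and for Cabin1 it was 4.70 times the knockdown and 3.98 times the H3.2 mRNA library, whereas the luciferase, knockdown and H3.2 mRNA libraries lay within 1.20-fold of each other.

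Ubn1, the ubinuclein that binds H3.3 directly in the complex, stood at 38.2 FPKM untreated, 89.9 with luciferase, 43.7 in the knockdown, 97.6 with H3.3 mRNA and 70.8 after H3.2 mRNA. Its knockdown value lay between the controls, which themselves differed 2.35-fold. Ubn2, its paralog, was the lowest HIRA complex gene in each library, at 16.4 FPKM untreated, 11.01 with luciferase, 9.56 in the knockdown, 15.8 with H3.3 mRNA and 24.6 after H3.2 mRNA. The knockdown value was the lowest of the 5, and it lay 1.15-fold under that of luciferase.

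Asf1b, the paralog of dividing cells, stood at 386 FPKM untreated, 275 with luciferase, 686 in the knockdown, 381 with H3.3 mRNA and 480 after H3.2 mRNA. The knockdown was the highest library, at 1.78 times the untreated and 2.49 times the luciferase level, and the H3.3 mRNA value lay just under that of the untreated library. Asf1a, the paralog most often linked with the HIRA route, stood at 60.5, 14.3, 67.3, 29.1 and 65.8 FPKM in the same order of libraries. The luciferase library was the low one for Asf1a, and the knockdown was 4.69-fold and the H3.2 mRNA library 4.58-fold above it. The knockdown was 1.11 times the untreated level.

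Daxx, the H3.3-binding partner in the ATRX-DAXX pair, stood at 306 FPKM untreated, 81.0 with luciferase, 66.5 in the knockdown, 199 with H3.3 mRNA and 131 after H3.2 mRNA. The untreated library was the high one: it was 4.60-fold above the knockdown and 3.78-fold above the luciferase library, while the knockdown was 1.22-fold below luciferase. Atrx, the chromatin remodelling ATPase of the pair, stood at 2.44 FPKM untreated, 41.9 with luciferase, 2.76 in the knockdown, 43.8 with H3.3 mRNA and 26.3 after H3.2 mRNA. The untreated and knockdown libraries were both low and the other 3 high, so that Atrx was 17.2-fold higher in luciferase than in untreated embryos and 15.2-fold higher than in the knockdown. Both H3.3 mRNA and H3.2 mRNA libraries lay above the knockdown, by 15.9-fold and 9.53-fold. The knockdown was 1.13 times the untreated level, so the difference of the knockdown depended on which control was used.

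Chaf1a, the large CAF-1 subunit that binds PCNA, stood at 62.4 FPKM untreated, 158 with luciferase, 207.5 in the knockdown, 408 with H3.3 mRNA and 263 after H3.2 mRNA. As for Hira, all 3 knockdown-derived libraries lay above both controls. The knockdown was 3.33 times the untreated and 1.31 times the luciferase level. Chaf1b, the WD-repeat subunit of CAF-1, stood at 488 FPKM untreated, 283 with luciferase, 296 in the knockdown, 322 with H3.3 mRNA and 472 after H3.2 mRNA. It was the least variable member, with an SD of 0.38 on the log2(FPKM + 1) scale over the 5 libraries, and its knockdown value was 1.05 times that of luciferase.

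To read these values against the rest of the transcriptome, each pair of libraries was compared as a difference of log2(FPKM + 1), which understates the change of low genes, and a gene was counted from 4-fold (2 on this scale). None of the 10 chaperone genes in the knockdown was 4-fold away from both controls in 1 direction, where 11.3% of genes tested were (4.98% higher and 6.35% lower). Against the untreated library alone the knockdown differed in 1 of 10 (Daxx, lower by 2.19 on the log2 scale), where 32.5% of genes did, 16.8% higher and 15.6% lower. Against the luciferase library it differed in 2 of 10, Asf1a (2.15) and Atrx (-3.51), where 28.6% did, 9.74% higher and 18.9% lower. The luciferase and untreated libraries differed from each other in the same 2 genes, Asf1a (4.21-fold lower with luciferase, at the threshold on the log2 scale) and Atrx (3.64), where 36.9% did, 23.5% higher and 13.4% lower. These comparisons share the same 3 libraries, and the shares of members called lay below these background shares. All 10 members were above 0 in every library, and among such genes the background was lower. It was 5.56% for the knockdown against both controls, 22.7% against untreated, 15.8% against luciferase and 23.6% between the controls. The 2 of 10 against luciferase lay above that share. The Daxx difference was -1.97, -1.77 and -1.997 with upper-quartile scaling, quantile normalization and median-ratio scaling, under the threshold in each case. The Asf1a difference between the controls was -1.75 with upper-quartile scaling, -1.89 with median-ratio scaling and -1.76 with a pseudocount of 5, likewise under it.

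The controls lay farther apart over the chaperone genes than the knockdown lay from either of them. The median absolute difference of the 10 genes was 1.26 between luciferase and untreated embryos, 0.72 between knockdown and untreated and 0.49 between knockdown and luciferase, against 1.37, 1.16 and 1.12 over all genes tested. Over the genes with a mean of 50 to 500 FPKM it was 1.13, 1.13 and 0.95. Between the controls the members thus lay above that set. The summed level of the 8 oocyte markers also differed between the controls. It was 4302 FPKM in the untreated library, 261 with luciferase, 1374 in the knockdown, 1107 with H3.3 mRNA and 766 after H3.2 mRNA. Mos and Oosp1 were at 0 with luciferase, whereas Zp2 was higher there, at 34.6 against 8.82 FPKM untreated. Zp1 was highest in the knockdown, at 133 FPKM, and Bmp15 after H3.2 mRNA, at 112 FPKM. The part of the oocyte markers in the chaperone values was not tested. In RNA from whole embryos, fewer cells with a transcript and less of it per cell cannot be told apart.

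**Figure D2:**
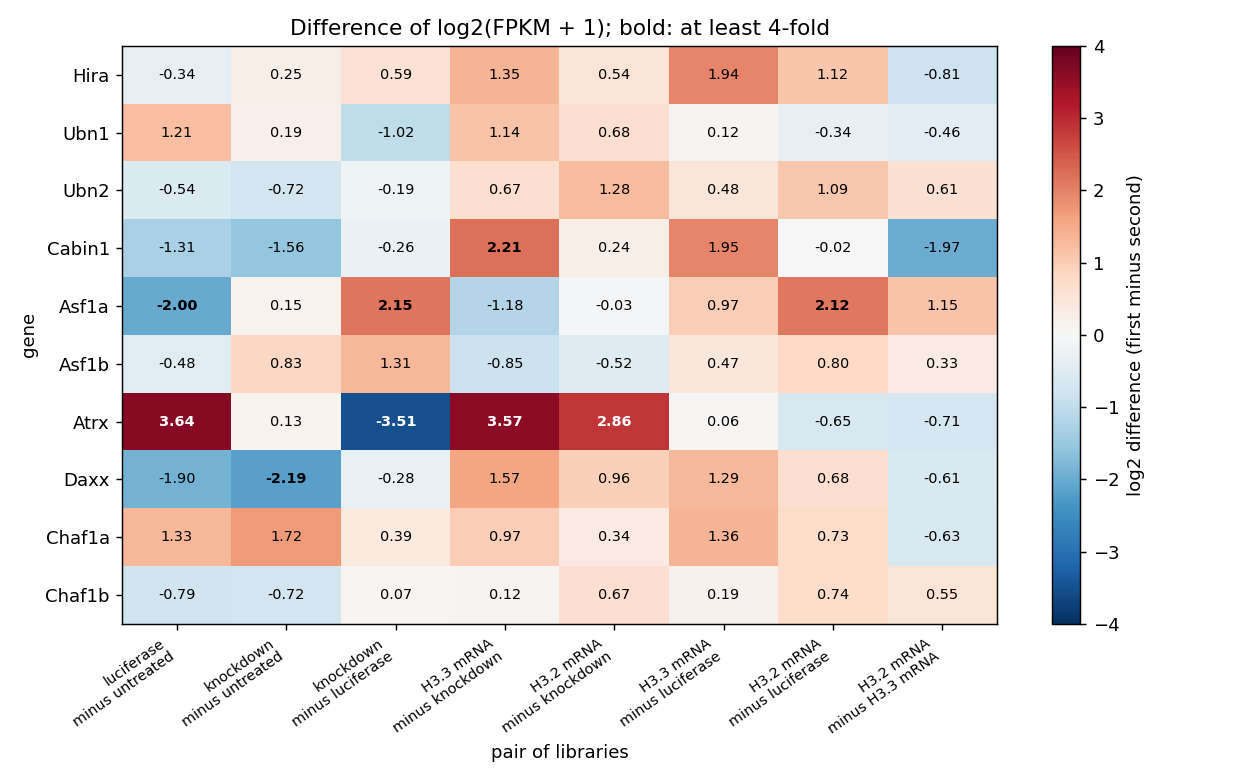
Difference of log2(FPKM + 1) for each of the 10 genes (rows) in 8 pairs of libraries (columns), first library minus second, with red for higher, blue for lower and bold print from 4-fold. Atrx carries 4 of the 9 bold values and Asf1a 3, and the column of H3.3 mRNA minus luciferase holds no negative value.

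When the 3 libraries with the knockdown were set against both controls, the ranges did not overlap for Hira and Chaf1a, both higher, and no member was lower in all 3. Of all genes tested 7.14% were higher in this way, 8.83% lower and 16.0% either, so 2 of 10 is near the background. The same 2 genes met the rule without the H3.2 mRNA library, where 26.2% of genes did, and Asf1b joined them under each of the 3 rescalings. With luciferase as the only control, 5 members were higher in all 3 libraries (Hira, Asf1a, Asf1b, Chaf1a and Chaf1b), where 40.7% of genes were on the same side in either direction. Hira in the luciferase library was the lowest of the 5 and Chaf1a in the untreated library the lowest of the 5, so the controls were low in different places.

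The libraries of knockdown embryos given mRNA were then set against the knockdown library. With H3.3 mRNA, 8 of 10 chaperone genes stood higher than in the knockdown, where 48.9% of genes did, with a median difference of 1.06 against 0.00 over all genes. At 4-fold 26.4% of genes were called, 16.4% higher and 10.1% lower, and 14.5% of those above 0 in every library. Of the 10 chaperone genes 2 were called, Cabin1 (2.21) and Atrx (3.57). At 2-fold, Hira (1.35), Ubn1 (1.14) and Daxx (1.57) joined them as higher, where 29.4% of genes were, and Asf1a (-1.18) was lower, where 21.7% were. The 8 were every HIRA complex gene, both ATRX-DAXX genes and both CAF-1 genes (Chaf1a at 0.97 and Chaf1b at 0.12). Both ASF1 paralogs, the shortest of the 10 transcripts, stood lower. When the length trend was removed, 7 of 10 stood higher, with a median of 0.46. Ubn2 was then lower (-0.34), and Hira (0.75) and Ubn1 (0.54) were under 2-fold. With H3.2 mRNA, 8 of 10 stood higher than in the knockdown, where 53.0% of genes did, with a median of 0.60 against 0.15 over all genes. At 4-fold 28.6% of genes were called, 19.5% higher and 9.11% lower, and 16.5% of those above 0 in every library. Of the 10 chaperone genes only Atrx passed 4-fold (2.86). With quantile normalization it was at 1.84, under the threshold. With the length trend removed 3 of 10 stood higher, with a median of -0.18, and Atrx was at 1.43. Both comparisons share the knockdown library.

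Set against the luciferase library, all 10 chaperone genes stood higher with H3.3 mRNA, where 46.0% of genes tested did, and the median difference was 0.73 against 0.00 over all genes. The count stayed at 10 of 10 under each of the 3 rescalings and with the length trend removed. Cabin1 (1.95), Hira (1.94), Chaf1a (1.36) and Daxx (1.29) were at least 2-fold higher, where 20.1% of genes were, and Atrx differed least (0.06). None reached 4-fold, where 21.2% of genes did, 8.70% higher and 12.5% lower. With H3.2 mRNA, 7 of 10 stood higher than with luciferase, where 48.3% did, with a median of 0.73 against 0.00. Asf1a (2.12) passed 4-fold, where 20.3% of genes did, 10.4% higher and 9.84% lower, and 8.21% of those above 0 in every library. This is the pair within the SCNT label, whereas the knockdown was compared within the NT label only with the untreated and H3.3 mRNA libraries, so label and treatment cannot be told apart in the other pairs. Between the mRNA libraries 6 of 10 were lower with H3.2 mRNA, where 44.4% of genes were. Cabin1 came closest to 4-fold (-1.97) and none passed it, where 21.0% of genes did, 12.6% higher and 8.38% lower. With quantile normalization Cabin1 passed it, at -2.21.

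The sum over the 10 genes was 1584 FPKM untreated, 1080.2 with luciferase, 1535 in the knockdown, 1987 with H3.3 mRNA and 1746 after H3.2 mRNA. The luciferase library was the low one and the knockdown lay close to the untreated library, so the sum did not separate the knockdown from both controls. Its makeup did vary. The ASF1 paralogs held 49.1% of it in the knockdown, against 28.2% untreated, 26.8% with luciferase, 20.7% with H3.3 mRNA and 31.2% after H3.2 mRNA, and Asf1b gave most of that. The HIRA complex held 13.6% in the knockdown, 17.6% untreated, 21.0% with luciferase, 30.4% with H3.3 mRNA and 17.7% after H3.2 mRNA. ATRX-DAXX held 4.51% in the knockdown, 19.5% untreated, 11.4% with luciferase, 12.2% with H3.3 mRNA and 8.99% after H3.2 mRNA. CAF-1 varied least, from 32.8% in the knockdown to 42.1% with H3.2 mRNA. The knockdown library thus had the highest ASF1 share and the lowest share of each of the other 3 complexes. Shares are parts of 1 total, so a high ASF1 part lowers the others. A low share is therefore not a low level: the CAF-1 sum was 504 FPKM in the knockdown, 551 untreated and 441 with luciferase. A share inside a library does not depend on how that library was scaled, but each share comes from 1 library. Transcript length moved with it: Asf1b and Asf1a are the shortest of the 10 transcripts, and in the knockdown against luciferase short genes stood higher and long genes lower, as given below. With the length trend removed, Asf1b was at 1.06 in that comparison, Hira at 1.23 and Chaf1a at 1.03, against 1.31, 0.59 and 0.39 before that step.

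**Figure D3:**
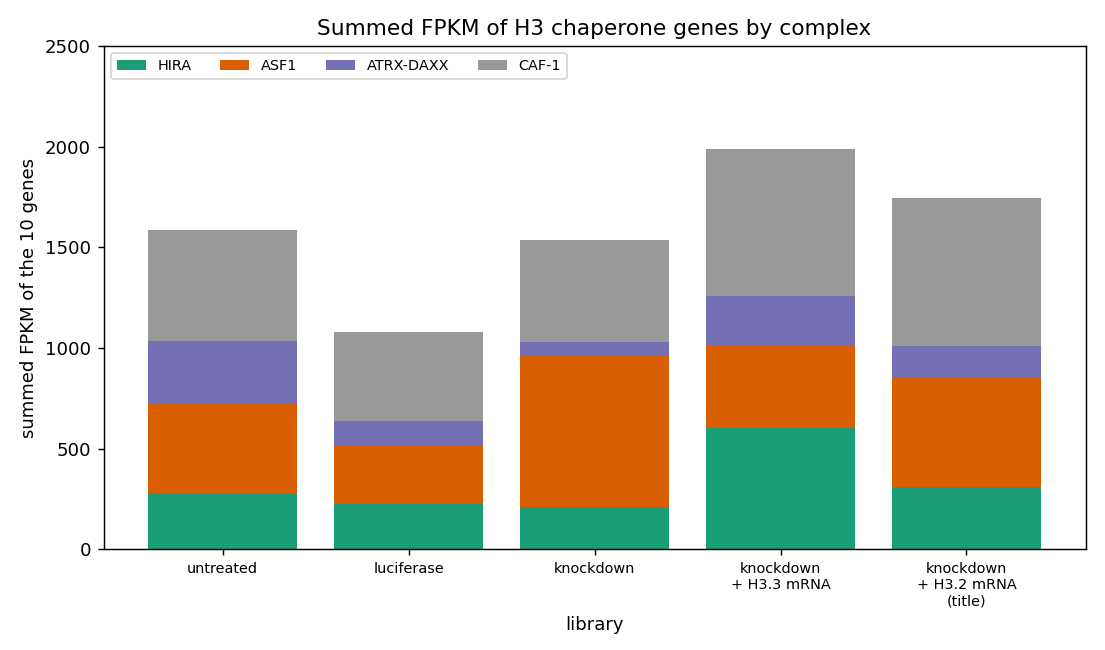
Summed FPKM of the 10 genes in each library, stacked by complex, on an axis that starts at 0. The ASF1 part is tallest in the knockdown, 754 FPKM of 1535, and the HIRA part is tallest with H3.3 mRNA, 603 FPKM of 1987.

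Ratios between partners were taken within each library for the same reason. Chaf1a and Chaf1b form CAF-1 together, and their ratio was 0.128 in the untreated library, 0.559 with luciferase, 0.701 in the knockdown, 1.27 with H3.3 mRNA and 0.558 after H3.2 mRNA. The untreated library was the low one, while the luciferase and H3.2 mRNA libraries had nearly the same ratio. Asf1b was above Asf1a in each library, by 6.38-fold untreated, 19.2-fold with luciferase, 10.2-fold in the knockdown, 13.1-fold with H3.3 mRNA and 7.29-fold after H3.2 mRNA. Ubn1 was above Ubn2 by 2.32-fold, 8.17-fold, 4.57-fold, 6.19-fold and 2.88-fold in the same order. In both paralog pairs the knockdown ratio lay between those of the controls. Daxx was above Atrx by 125-fold untreated, 1.93-fold with luciferase, 24.1-fold in the knockdown, 4.55-fold with H3.3 mRNA and 4.97-fold after H3.2 mRNA, the widest swing of the 4 pairs. Atrx was at only 2.44 FPKM untreated and 2.76 in the knockdown. With 1 FPKM added to both genes, the ratios of those libraries were 89.2 and 17.9. The longest transcripts are 2673 bases for Daxx and 10275 for Atrx, and the part of length in this ratio was not tested.

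**Figure D4:**
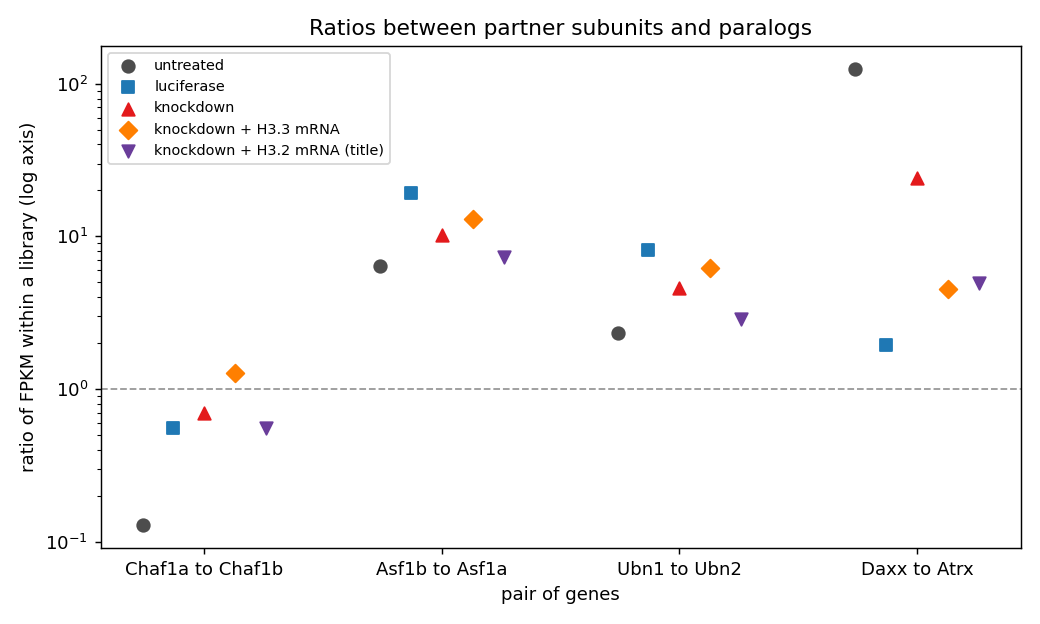
Ratio of FPKM between 2 genes of the same library, on a log axis, for 4 pairs of subunits or paralogs, with 1 point per library and a dashed line at equality. The Daxx to Atrx ratio runs from 1.93 to 125, and the Chaf1a to Chaf1b ratio passes 1 only with H3.3 mRNA.

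Transcript length moved with several of these comparisons. The longest GENCODE M21 transcript (GRCm38) of the 10 genes runs from 1788 bases for Asf1b to 10275 for Atrx and 14644 for Ubn2. It is 4218 bases for Hira and 7698 for Chaf1a, which puts both in the class of 4 to 8 kb. The annotation behind the FPKM values is not given, so the transcript measured may belong to another length class. Over all genes tested, the knockdown minus luciferase difference had a median of 0.70 in 627 genes under 1 kb and -0.95 in 581 genes over 8 kb, and the H3.2 mRNA minus knockdown difference -1.33 and 1.43. In the former comparison 7 of the 10 genes stood above the median of their length class, and Ubn1, Atrx and Daxx below it. When the class median was subtracted, Atrx was at -2.56 in the knockdown against luciferase, at 2.90 between the controls and at 2.57 with H3.3 mRNA against the knockdown, still past 4-fold. With H3.2 mRNA against the knockdown, Atrx fell under the threshold, at 1.43, and 3 of 10 chaperone genes stood higher in place of 8. The direction of that count thus changed with the subtraction, and the part of length in it was not tested. With H3.3 mRNA against the knockdown 7 of 10 stood higher in place of 8, and Cabin1 was at 1.61, under the threshold.

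**Figure D5:**
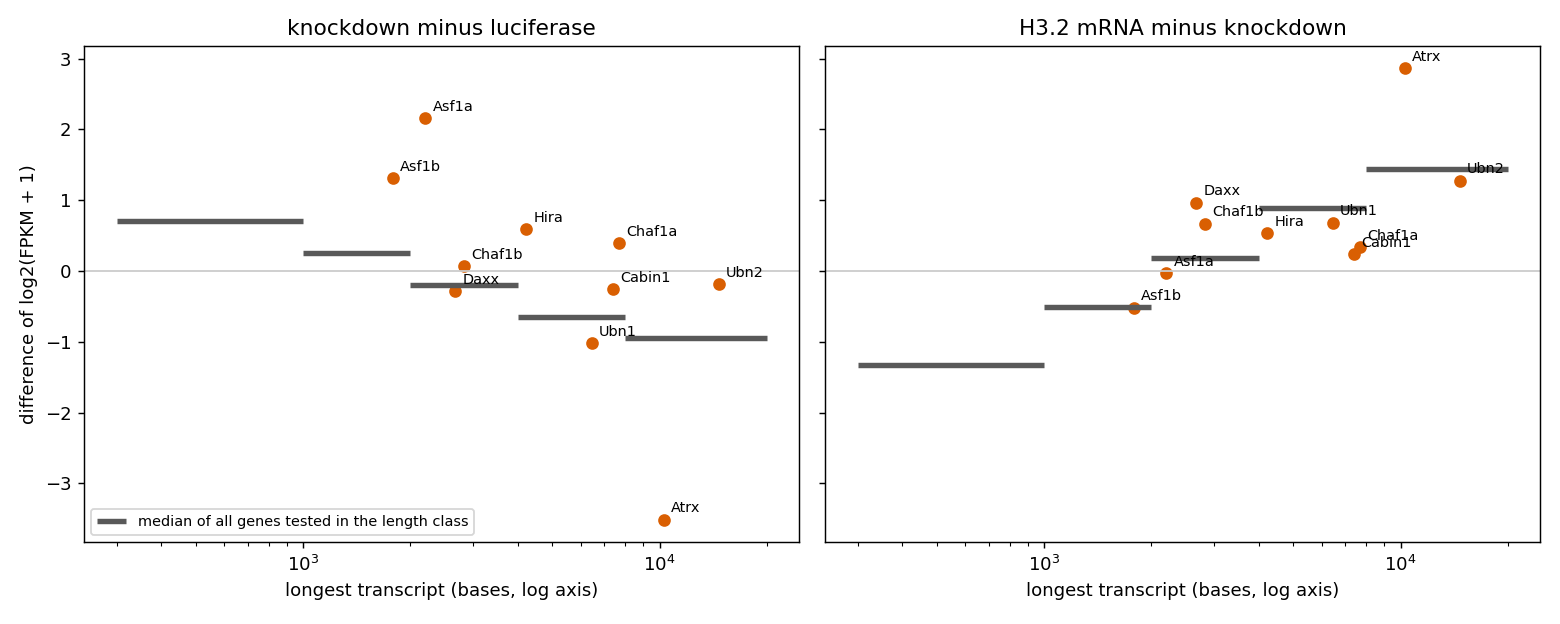
Difference of log2(FPKM + 1) against the length of the longest transcript (log axis) for the 10 genes, for knockdown minus luciferase (left) and H3.2 mRNA minus knockdown (right), with bars at the median of all genes tested in each length class. In the left panel Atrx lies at -3.51 against a class median of -0.95, and in the right panel 7 of the 10 genes lie below the bar of their class.

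Other genes of histone supply were counted from lists of their own. Of 25 further histone chaperones and their escorts, none was at least 4-fold from both controls in the knockdown, where 11.3% of all genes were. In the knockdown 1 was lower than in the untreated library, where 15.6% of all genes were, Anp32b (466 against 1986 FPKM), a chaperone of the acidic ANP32 family. Against luciferase Npm3 and Dnajc9, the latter a heat shock co-chaperone of H3-H4, stood higher, at 26.7 against 5.40 and 292 against 46.4 FPKM, and Supt16h, a subunit of the chaperone FACT, stood lower, at 7.54 against 38.2 FPKM. These were the calls against luciferase, where 9.74% of all genes were called higher and 18.9% lower. With H3.3 mRNA 4 of 25 were higher than in the knockdown, where 16.4% of all genes were, and none lower, where 10.1% were: Supt16h (137 FPKM), Supt6h (352 against 71.6), Tonsl (13.2 against 2.47) and Chd1 (207 against 44.2). With H3.2 mRNA 5 of 25 were higher, where 19.5% of all genes were, and none lower, where 9.11% were, with Hjurp and Cdan1 beside Supt16h, Tonsl and Chd1. Supt16h resembled Atrx in that it was low in the untreated and knockdown libraries, at 4.07 and 7.54 FPKM, and higher in the other 3. The list median was -0.47 for the knockdown against untreated and -0.56 against luciferase, with 0.00 and -0.12 over all genes.

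Of 14 partners of HIRA, ATRX and DAXX, 13 reached a mean of 1 FPKM, and none was 4-fold from either control in the knockdown. Of all genes 32.5% differed in this way from the untreated library and 28.6% from luciferase. Hirip3, which encodes a HIRA-binding protein, stood at 585 FPKM untreated, 70.3 with luciferase, 178 in the knockdown, 80.1 with H3.3 mRNA and 152 after H3.2 mRNA. It was the 1 partner that differed 4-fold between the controls, where 36.9% of all genes did. Setdb1, an H3K9 methyltransferase, passed 4-fold between the H3.3 mRNA library, at 492 FPKM, and the knockdown, at 98.6 FPKM. Of all genes 16.4% were called higher in that comparison. Of 26 replication fork genes, 1 was called lower in the knockdown against each control: Mcm4, a subunit of the replicative helicase, at 84.5 FPKM against 417 and 341. The same call was made for 6.35% of all genes. Against untreated 3 of the 26 were higher and 3 lower, where 16.8% and 15.6% of all genes were, and against luciferase 3 were lower, where 18.9% were, so these shares lay below the background. Other counts did not: 5 of the 26 lay below both controls in all 3 knockdown-derived libraries, where 8.83% of all genes did. None lay above both, where 7.14% did. Against luciferase 19 of the 26 stood lower in the knockdown and 7 higher, where 41.0% of all genes stood higher. The list median was -0.91 against -0.12 over all genes. Pcna, the clamp that binds CAF-1, stood at 2644 FPKM untreated, 676 with luciferase, 1201 in the knockdown, 666 with H3.3 mRNA and 730.1 after H3.2 mRNA. Unlike Chaf1a, it was highest in the untreated library.

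The cargo itself was seen only in part. Of 15 H3 genes 13 matched and 5 reached a mean of 1 FPKM. Among the clustered H3 genes, Hist1h3a stood at 16.6 FPKM untreated and 2.76 with H3.2 mRNA, and Hist1h3g at 3.06 and 12.1 FPKM. Both were at 0 in the knockdown and H3.3 mRNA libraries, and in the luciferase control Hist1h3a was at 0 and Hist1h3g at 0.30 FPKM. These genes have near-identical copies, so the division of reads among them is uncertain. The summed level of H3f3a and H3f3b was 56.4 times that of Hira in the untreated library and 77.9 times with luciferase, and it was 5.97 times in the knockdown, 1.64 times with H3.3 mRNA and 2.60 times after H3.2 mRNA. The H3.3 transcripts thus remained above the Hira transcript in all 5 libraries.

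Finally, the genes with the most similar profile over the 5 libraries were listed for 4 members, among 7823 genes above 0 throughout, by the Euclidean distance of log2 values centred on each gene's mean. Nearest to Hira were Wiz (distance 0.24), Lrrc47 (0.35) and Tmco6 (0.41), each highest with H3.3 mRNA. Nearest to Daxx were Wbp4 (0.23), Tgfbrap1 (0.26) and Mtmr9 (0.26), each highest in the untreated library. Among the nearest to Asf1b were Fam203a (0.10) and Coq4 (0.27), both highest in the knockdown, and nearest to Chaf1a were Arf2 (0.25), Ccnk (0.32) and Rbm27 (0.36), each lowest in the untreated library. No chaperone gene was among the 3 nearest of another. The closest member of Hira was Chaf1a at 1.30, rank 492 of the 7823, and that of Daxx was Cabin1 at 1.10. These distances describe profiles over 5 libraries only.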

How the data were processed

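Total RNA of mouse embryos was sequenced from Illumina TruSeq libraries with single 51-base reads, per the labels. TopHat and Cufflinks were used with mm9 to give FPKM, per the submitters' processing notes; versions and gene annotation are not given in the sources used here. Tables deposited by the authors hold 1 FPKM value per gene symbol. FPKM divides by transcript length and library total, so a shift of abundant transcripts moves all others. The members and lists were chosen with earlier results of these data known. Values were compared as log2(FPKM + 1) over the 13144 genes whose mean reached 1 FPKM, and called from 4-fold. With 1 library per group no test was made. All 10 members are named, as are up to 4 genes with the largest difference per list and comparison and the 3 nearest profiles of 4 members, clone names left out; 1 of these profiles is not reported here. Genes outside this rule, such as Pcna and the clustered H3 genes, were chosen after their values were seen. The counting was tested on simulated data. Python 3.11.15, numpy 2.4.6 and pandas 2.3.3 were used. Alternatives were other pseudocounts, filters, scalings, fold thresholds and the NT-labelled libraries alone. Removal of the length trend, luciferase as the only control and leaving out the H3.2 mRNA library were chosen after seeing the data.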

Additional observations from a re-analysis of the deposited data

How the results depend on the processing

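No paired analysis was possible because each group is 1 library. Of 800 recomputed differences of the 10 genes, 11 fell under the 4-fold threshold and 23 passed it, 21 of these because the threshold was set at 2-fold, and none of the 9 called values changed sign. The filters altered only the background, and the 2-fold threshold only the calls. Under these settings no difference could change in size or sign, so the total of 800 overstates what was tried. Among the uncalled values 13 changed sign. With a pseudocount of 5, the knockdown minus luciferase comparison called 1 member, luciferase minus untreated 1 and H3.2 mRNA minus luciferase 0. Upper-quartile scaling gave 0 for knockdown minus untreated and 1 for luciferase minus untreated, and median-ratio scaling gave the same 0 and 1. Quantile normalization gave 0 for knockdown minus untreated, 0 for H3.2 mRNA minus knockdown and 1 for H3.2 mRNA minus H3.3 mRNA. With a 2-fold threshold the counts were 3 for knockdown minus untreated, 4 for knockdown minus luciferase, 6 for luciferase minus untreated, 6 for H3.3 mRNA minus knockdown, 2 for H3.2 mRNA minus knockdown, 4 for H3.3 mRNA minus luciferase, 3 for H3.2 mRNA minus luciferase and 2 for H3.2 mRNA minus H3.3 mRNA. In the same order, 25.6, 21.5, 34.2, 29.4, 33.5, 20.1, 22.4 and 24.2% of genes tested were 2-fold higher. The shares 2-fold lower were 29.2, 32.6, 25.8, 21.7, 21.4, 23.4, 20.5 and 18.9%. With the length trend removed, H3.3 mRNA minus knockdown called 1, H3.2 mRNA minus knockdown 0 and H3.2 mRNA minus H3.3 mRNA 1. With luciferase as the only control, the knockdown called 2 members and the 3 knockdown-derived libraries 5; with the NT-labelled libraries only, the knockdown called 1. With upper-quartile scaling the median of all genes went from 0.02 to 0.28 in luciferase minus untreated and from 0.15 to 0.36 in H3.2 mRNA minus knockdown. The share of all genes called ran over the comparisons from 11.3 to 36.9% as reported, from 5.77 to 22.3% with a pseudocount of 5, from 25.6 to 60% with the 2-fold threshold, from 10.7 to 36.5% under the rescalings and length removal, and was 28.6% and 40.7% with luciferase as the only control and 32.5% with the NT-labelled libraries. The cause was not tested.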
